A study of Homo sapiens with 6 samples.

Results

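The G1 cyclins and their kinases are 8 genes: the D cyclins CCND1, CCND2 and CCND3, the E cyclins CCNE1 and CCNE2, and the kinases CDK2, CDK4 and CDK6. They were chosen by gene symbol, and all 8 were measured and tested, among 10526 tested genes of 19775 with a probe set. Together they had 23 of the 54675 probe sets of the array. Each gene is represented by its brightest probe set over the 6 arrays, and the remaining 15 probe sets served as a check. On GRCh38.p14, CCND1 lies at chr11:69641156-69654474, CCND2 at chr12:4273762-4305353, CCND3 at chr6:41934933-42050035 and CCNE1 at chr19:29811991-29824312. CDK2 lies at chr12:55966830-55972789, CDK4 at chr12:57747727-57752310, CDK6 at chr7:92604921-92836573, and CCNE2 on chromosome 8.

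RNA came from H1299 cells, a human lung carcinoma line, 72 hours after infection with a lentivirus that carried a short hairpin RNA (shRNA). The 3 groups had 2 arrays each: a scramble shRNA, called SC in the labels, and separate shRNAs against RBP2, called RBP2 KD1 (here shRNA 1) and RBP2 KD2 (here shRNA 2). All cells grew in RPMI medium with 10% fetal calf serum. RBP2 was renamed KDM5A: it removes methyl groups from histone H3 at lysine 4 and was found as a binding partner of the retinoblastoma protein. Nothing states whether the 2 arrays of a group came from separate cultures, and p-values then measure the spread between these samples alone, part or all of which may be technical. Values are log2 expression values, and a probe set is compared only with itself across arrays.

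D cyclins form complexes with CDK4 and CDK6 when growth factors are present, and E cyclins form complexes with CDK2 later in G1. These kinases phosphorylate the retinoblastoma protein and its relatives, which releases E2F factors to switch on the genes of S phase, among them the E cyclins themselves. Inhibitors of the INK4 family bind CDK4 and CDK6, and those of the CIP/KIP family bind complexes of all of these kinases.

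The target of both shRNAs was lower in all 4 knockdown arrays. KDM5A measured 9.35 and 9.42 under scramble, 7.42 and 7.27 under shRNA 1, and 6.66 and 6.72 under shRNA 2 (limma adjusted p = 0.0048 and 0.0024 against scramble). Among markers of the labelled cell line, VIM, KRT18, KRT8 and CDH2 had a mean log2 value of at least 4, while EPCAM, CDH1 and KRT19 lay below 4 on every array. Of the markers of other cell types that had a probe set, 5 of 6 fibroblast, 4 of 4 leukocyte and 5 of 5 endothelial genes were below 4 on every array. The exception was COL1A1 of the fibroblast list, with a mean of 6.57. The median of the tested genes lay between 8.49 and 8.56 in all 6 arrays.

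The G1 genes had a different pattern with each shRNA. With shRNA 2 the 3 kinases, CCNE2 and CCND2 fell and CCND1 and CCND3 rose, whereas with shRNA 1 CCNE1 and CCND1 fell and CDK6 rose. A gene was called, that is, said to rise or fall, when limma's Benjamini-Hochberg adjusted p over all tested genes was under 0.05. With shRNA 1, 3 of the 8 genes were called, beside 11.5% of all tested genes: 1 higher, beside 3.62%, and 2 lower, beside 7.90%. With shRNA 2, 7 of the 8 were called, beside 31.0% of all tested genes: 2 higher, beside 16.7%, and 5 lower, beside 14.4%. With the replicate number as a block in the fit, 4 members were called with shRNA 1, beside 29.6% of all tested genes, and 7 with shRNA 2, beside 50.6%. The 2 arrays of shRNA 1 lay wholly above or below scramble for 5 members, beside 53.9% of all tested genes, and those of shRNA 2 for 7, beside 69.8%. Both comparisons use the same scramble arrays, so their values are given side by side. In bulk RNA, fewer cells of a type or cycle phase and less RNA per cell cannot be told apart.

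**Figure D1:**
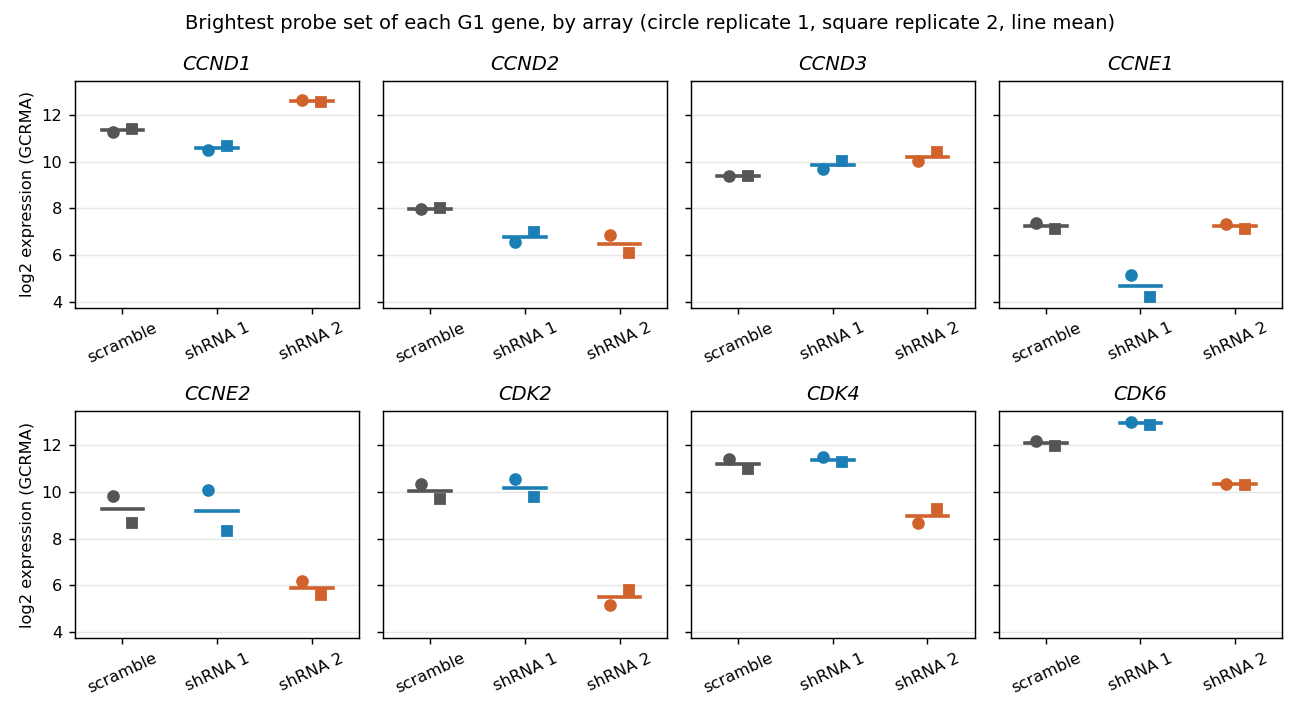
Log2 expression of the brightest probe set of each gene (y axis) on the 6 arrays, in 3 groups (x axis), with circles for replicate 1, squares for replicate 2 and a line at the mean of each group. The shRNA 2 arrays lie below the others for CCNE2, CDK2, CDK4 and CDK6 and above them for CCND1, and the shRNA 1 arrays lie lowest for CCNE1 and CCND1.

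CCND1, the D cyclin that growth factor signals induce in many epithelial cells, changed in opposite directions with the shRNAs. It measured 11.29 and 11.43 under scramble, 10.53 and 10.68 under shRNA 1, and 12.67 and 12.58 under shRNA 2. The groups did not overlap, and the order was shRNA 1, scramble, shRNA 2. CCND1 fell 1.69-fold with shRNA 1 (log2 fold change -0.76 ± 0.12, SE, limma adjusted p = 0.026) and rose 2.41-fold with shRNA 2 (1.27 ± 0.12, adjusted p = 0.0043). Its other probe set gave -0.64, which did not pass when every probe set was fitted on its own (adjusted p = 0.17), and 1.35, which did (adjusted p = 0.019).

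CCND2, a second D cyclin, was lower in all 4 knockdown arrays. It measured 7.96 and 8.0 under scramble, 6.57 and 7.0 under shRNA 1, and 6.85 and 6.09 under shRNA 2. The shRNA groups overlapped each other and both lay below scramble. CCND2 fell 2.86-fold with shRNA 2 (-1.51 ± 0.29, limma adjusted p = 0.018). With shRNA 1 the log2 fold change was -1.20 with a 95% interval from -1.94 to -0.46, which did not pass (adjusted p = 0.063). It passed with the replicate number as a block (adjusted p = 0.042) and with the filter raised to a mean log2 of 6 (adjusted p = 0.047). Its other 3 probe sets stayed between 2.24, the floor of the values, and 2.38 on every array.

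CCND3, the third D cyclin, was higher in all 4 knockdown arrays. It measured 9.41 and 9.38 under scramble, 9.69 and 10.02 under shRNA 1, and 10.03 and 10.41 under shRNA 2. The groups did not overlap, although 10.02 and 10.03 nearly met. CCND3 rose 1.77-fold with shRNA 2 (0.82 ± 0.18, limma adjusted p = 0.028), and with shRNA 1 it had 0.46 with an interval from -0.013 to 0.93 (adjusted p = 0.18). Its other probe set stood at the floor on every array, and the mean of both gave 0.41 with shRNA 2 (adjusted p = 0.047).

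CDK4, a partner of the D cyclins, was low with shRNA 2 alone. It measured 11.40 and 11.01 under scramble, 11.52 and 11.28 under shRNA 1, and 8.68 and 9.29 under shRNA 2. The shRNA 2 arrays were the lowest, and shRNA 1 overlapped scramble. CDK4 fell 4.67-fold with shRNA 2 (log2 fold change -2.22 ± 0.26, limma adjusted p = 0.0060). With shRNA 1 it had 0.19 with an interval from -0.47 to 0.85 (adjusted p = 0.68). CDK4 had 1 probe set, so no other one could check it.

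CDK6, the other partner of the D cyclins, had the reverse order of CCND1. It measured 12.20 and 11.98 under scramble, 13.03 and 12.87 under shRNA 1, and 10.34 and 10.32 under shRNA 2. The 3 groups did not overlap, with shRNA 1 highest and shRNA 2 lowest. CDK6 rose 1.82-fold with shRNA 1 (0.86 ± 0.13, limma adjusted p = 0.024) and fell 3.38-fold with shRNA 2 (-1.76 ± 0.13, adjusted p = 0.0032). It had 7 probe sets, of which 5 had a mean log2 value of at least 4. With shRNA 2 these 5 gave differences from -3.63 to -1.74, and all 5 were called when every probe set was fitted on its own. With shRNA 1 the values ran from -0.050 to 0.94, and 3 of the 5 were called. The probe set with -0.050 thus did not show the rise with shRNA 1, although its fall with shRNA 2 was the largest of the 5. By the mean of all 7 probe sets, CDK6 had 0.54 with shRNA 1, which did not pass (adjusted p = 0.091).

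Promoter sequences are shown for CDK4 and CDK6, the partners of D cyclins that both fell with shRNA 2. RefSeq windows on GRCh38.p14, from 250 bases before to 50 after a start site, were at hand for 4 of the 8 genes, CCND3, CCNE1, CDK4 and CDK6. Both windows printed here run 5′ to 3′ on the minus strand, CDK4 at chr12:57752261-57752560 and CDK6 at chr7:92836524-92836823, the latter the outermost of its 2 windows.
CDK4: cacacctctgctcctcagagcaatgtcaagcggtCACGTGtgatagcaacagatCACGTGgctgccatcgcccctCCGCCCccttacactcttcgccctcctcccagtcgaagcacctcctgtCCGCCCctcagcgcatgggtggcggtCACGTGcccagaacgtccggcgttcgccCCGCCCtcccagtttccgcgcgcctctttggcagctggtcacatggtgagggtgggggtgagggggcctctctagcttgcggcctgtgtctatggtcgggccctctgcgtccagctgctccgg
CDK6: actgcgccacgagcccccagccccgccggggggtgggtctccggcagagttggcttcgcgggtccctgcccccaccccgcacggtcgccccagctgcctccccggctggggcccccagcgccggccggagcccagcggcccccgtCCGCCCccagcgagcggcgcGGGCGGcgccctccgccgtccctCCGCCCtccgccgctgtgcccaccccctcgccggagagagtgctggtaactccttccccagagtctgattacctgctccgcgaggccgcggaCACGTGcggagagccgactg
Capitals mark the letters CCGCCC on either strand and the palindrome CACGTG. The ARID domain of KDM5A has been reported to bind CCGCCC, which is also part of the GC box of Sp1. CACGTG is the E-box that MYC and related factors recognise. The CDK4 window held CCGCCC 3 times and CACGTG 3 times, the latter from base -216 to -211, -196 to -191 and -101 to -96 of the start site. The CDK6 window held CCGCCC 3 times and CACGTG once, from base 31 to 36 after the start. The other CDK6 window, not printed, held neither. The CCND3 windows, not printed, held CCGCCC 5, 4 and 0 times and no CACGTG. Among all 35116 windows of this length, 45.0% held CCGCCC and 7.26% held CACGTG. The E2F letters TTTCCCGC, TTTCGCGC, TTTGGCGC and TTTGCCGC, searched on both strands, were in 3.31% of all windows and in 0 of the 7 windows of these 4 genes. These are matches of letters and not measured binding sites.

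CCNE1, the first E cyclin, was the member with the largest change with shRNA 1. It measured 7.38 and 7.12 under scramble, 5.16 and 4.18 under shRNA 1, and 7.35 and 7.12 under shRNA 2. Only the shRNA 1 arrays were low, and shRNA 2 overlapped scramble. CCNE1 fell 5.96-fold with shRNA 1 (-2.58 ± 0.34, limma adjusted p = 0.018), and 0.285% of the tested genes had as large a log2 fold change in either direction. With shRNA 2 it had -0.014 with an interval from -0.88 to 0.85 (adjusted p = 0.99), a value that turned to 0.030 with arrays centred on their medians and to 0.010 after quantile normalization. Its second probe set was at the floor on every array, so the mean of both gave -1.29 with shRNA 1 (adjusted p = 0.021). The CCNE1 window, on the plus strand at chr19:29811741-29812040, is shown as that of the member with the largest change with shRNA 1:
CCNE1: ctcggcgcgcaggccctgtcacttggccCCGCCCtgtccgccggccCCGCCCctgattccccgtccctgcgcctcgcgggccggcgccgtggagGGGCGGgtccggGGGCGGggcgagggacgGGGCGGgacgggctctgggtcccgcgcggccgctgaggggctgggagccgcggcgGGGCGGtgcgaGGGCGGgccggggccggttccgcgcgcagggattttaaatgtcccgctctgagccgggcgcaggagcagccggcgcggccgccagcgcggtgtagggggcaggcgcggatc
It held CCGCCC on either strand 7 times, again in capitals, from base -222 to -56 of the start site, and no CACGTG. No background over all windows was computed for the number of copies in a window.

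Where CCNE1 was low with shRNA 1 alone, CCNE2, the second E cyclin, was low with shRNA 2 alone. It measured 9.84 and 8.67 under scramble, 10.07 and 8.33 under shRNA 1, and 6.20 and 5.60 under shRNA 2. Only the shRNA 2 arrays were low. CCNE2 fell 10.3-fold with shRNA 2 (-3.36 ± 0.69, limma adjusted p = 0.022), and with shRNA 1 it had -0.059 with an interval from -1.83 to 1.71 (adjusted p = 0.97). Replicate 1 exceeded replicate 2 by 1.17 in scramble cells, 1.75 with shRNA 1 and 0.61 with shRNA 2, gaps that 1.12%, 0.218% and 5.73% of the tested genes reached. A dimmer probe set had the same order, with 5.45 and 3.22 under scramble, 5.63 and 2.99 under shRNA 1, and 2.43 and 2.24 under shRNA 2, the last at the floor. By the mean of both probe sets CCNE2 had -2.68 with shRNA 2, which did not pass (adjusted p = 0.077).

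CDK2, the partner of E cyclins, had the largest change of the 8 genes. It measured 10.37 and 9.70 under scramble, 10.56 and 9.77 under shRNA 1, and 5.14 and 5.81 under shRNA 2. Both shRNA 2 arrays were thus far below the other 4, and the shRNA 1 arrays overlapped scramble. CDK2 fell 23.5-fold with shRNA 2, a log2 fold change of -4.56 ± 0.40 (limma adjusted p = 0.0038), and 0.057% of the tested genes had as large a log2 fold change in either direction. With shRNA 1 the log2 fold change was 0.13 with a 95% interval from -0.89 to 1.15 (adjusted p = 0.87). A second probe set of CDK2 put the difference from scramble at -3.48 with shRNA 2 and -0.21 with shRNA 1. The third stood at the floor on every array, and the mean of all 3 gave -2.68 with shRNA 2 (adjusted p = 0.0041).

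**Figure D2:**
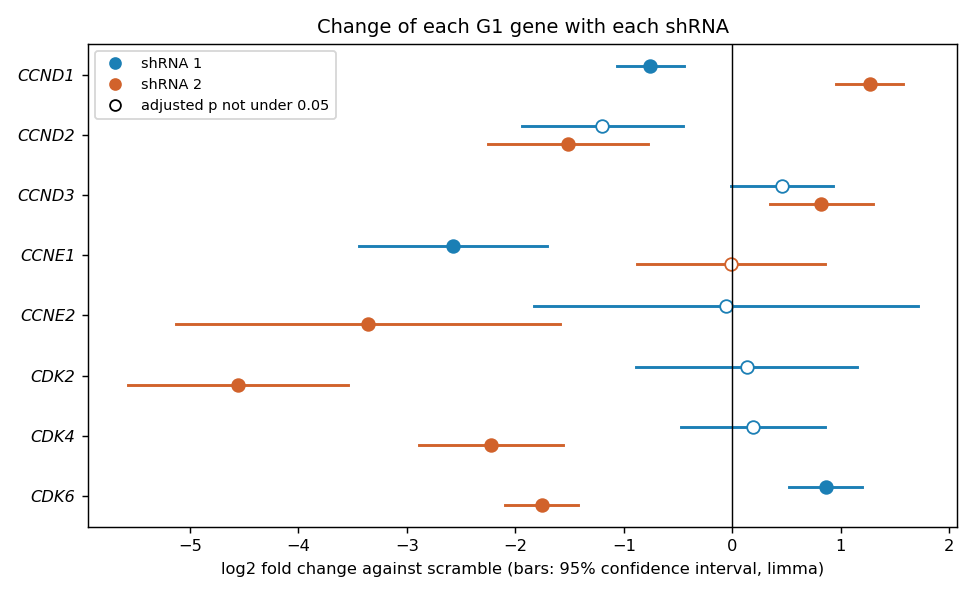
Log2 fold change against scramble (x axis) of the 8 genes (y axis) with shRNA 1 and shRNA 2, with bars for the 95% confidence interval of limma and open circles where the adjusted p was not under 0.05. CCND1 and CDK6 have filled circles on opposite sides of 0, and CDK2 with shRNA 2 lies farthest from 0 at -4.56.

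The call counts changed with the arrays in the fit. With shRNA 1 they fell whichever array was left out, also an shRNA 2 array, which does not enter that comparison. Without either shRNA 2 array the log2 fold changes stayed at -0.76 for CCND1, 0.86 for CDK6 and -2.58 for CCNE1. The cause of the lost calls with shRNA 1 was not tested. Each fit with an array left out has fewer residual degrees of freedom than the 3 with all arrays. With shRNA 1 no member was called without scramble replicate 1, scramble replicate 2, shRNA 2 replicate 1 or shRNA 2 replicate 2 (0 by limma, with 4 members under an unadjusted p of 0.05 without a scramble array and 5 without an shRNA 2 array), and CCNE1 alone was called without either shRNA 1 array. The log2 fold changes behind the lost calls ran from -0.83 to -0.68 for CCND1 and from 0.75 to 0.97 for CDK6. In the same 6 fits, 0 to 191 of all 10526 genes were called with shRNA 1, against 1213 with all arrays. With shRNA 2, CCND1, CDK2, CDK4 and CDK6 were called whichever array was left out. CCND2 was lost without scramble replicate 1 (adjusted p = 0.088), scramble replicate 2 (0.087) or shRNA 2 replicate 2 (0.066). CCND3 was lost without scramble replicate 1 (0.11), scramble replicate 2 (0.11), shRNA 2 replicate 1 (0.070) or shRNA 2 replicate 2 (0.12), and CCNE2 without the same arrays (0.11, 0.058, 0.11 and 0.13). Over all genes, 624 to 2928 were called with shRNA 2 in these fits, against 3264 with all arrays. With no filter on dim probe sets, 0 members were called with shRNA 1 by limma, with 4 under an unadjusted p of 0.05, and the same 3 were lost with shRNA 2 (CCND2 0.11, CCND3 0.12 and CCNE2 0.13). Within each replicate number, the differences of the 7 called members kept their sign with shRNA 2: CDK2 had -5.23 in replicate 1 and -3.89 in replicate 2, CDK4 had -2.73 and -1.72, and CCND2 had -1.11 and -1.91.

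**Figure D3:**
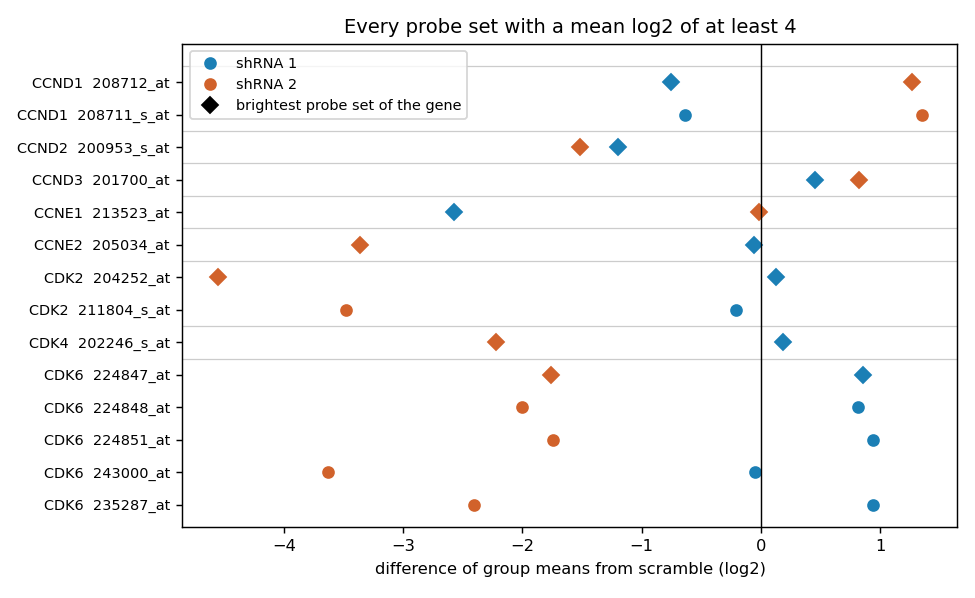
Difference of group means from scramble on the log2 scale (x axis) for the 14 probe sets of the 8 genes with a mean log2 value of at least 4 (y axis, by gene), with diamonds for the brightest probe set of each gene. All probe sets of CCND1, CDK2 and CDK6 agree in sign with shRNA 2, and the points of CDK6 with shRNA 1 lie between -0.050 and 0.94.

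Set directly against each other, the shRNAs differed in 6 of the 8 genes, beside 41.1% of all tested genes, with 4 higher with shRNA 1, beside 17.8%, and 2 lower, beside 23.3%. The arrays of the shRNAs did not overlap for 7 members, beside 72.8% of all tested genes. CDK2, CCNE2, CDK6 and CDK4 were higher with shRNA 1, by 4.69 ± 0.40, 3.30 ± 0.69, 2.62 ± 0.13 and 2.41 ± 0.26 on the log2 scale (limma adjusted p = 0.0018, 0.018, 0.0011 and 0.0030). CCNE1 and CCND1 were lower with shRNA 1, with log2 differences of -2.56 ± 0.34 and -2.02 ± 0.12 (adjusted p = 0.0049 and 0.0012). CCND2 and CCND3 did not pass, with differences of 0.32 (interval from -0.42 to 1.06) and -0.36 (interval from -0.83 to 0.11). KDM5A itself was higher with shRNA 1 by 0.65 ± 0.11 (adjusted p = 0.010), while 1 of its 4 probe sets with a mean of at least 4 was called when each was fitted on its own. CCNE1 was lost without shRNA 2 replicate 1 (adjusted p = 0.051), and CCNE2 without that array (0.086), shRNA 1 replicate 1 (0.056) or shRNA 2 replicate 2 (0.11).

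In the mean of both shRNAs, where opposite changes cancel, limma called 3 of the 8 genes, CDK2, CCND2 and CDK4, beside 12.5% of all tested genes. All 3 were lower, beside 6.92%. With the replicate number as a block, 7 were called, 6 lower and CCND3 higher, beside 34.9% of all tested genes. The additional ones were CCNE1 at -1.29, CCNE2 at -1.71, CDK6 at -0.45 and CCND3 at 0.64. CCNE1, CCNE2 and CDK6 differed between the shRNAs, so their mean describes neither. Leaving out shRNA 1 replicate 1 left CCNE1 alone called, and leaving out any other single array left 0 called by limma, with 4 to 6 members under an unadjusted p of 0.05.

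Genes that act on the G1 kinases or follow them were read from lists of the pathway. The list of G1/S genes driven by E2F, which holds CCNE1 and CCNE2, had 24 tested genes, of which 14 fell with shRNA 2 and 0 rose. That is 58.3% lower, beside 14.4% of all tested genes, with a median log2 fold change of -2.04 beside 0.079 over all tested genes. With the block 22 fell, beside 22.2% of all tested genes lower with shRNA 2 under the block and 28.4% higher. With shRNA 1 under the block the background was 16.8% lower and 12.8% higher. CDC45 and GINS2 are parts of the replicative helicase, of which CDC45 fell by 4.51 and GINS2 fell by 4.21. CDC45 measured 3.05 on both shRNA 2 arrays, below 4, so the size of its fall is uncertain. MCM7, another helicase subunit, fell by 2.96, and SLBP, which binds histone mRNA, fell by 1.82. With shRNA 1 the median was -0.078 beside 0.0025 over all tested genes, and 2 of the 24 fell (8.33%, beside 7.90%), CCNE1 and the helicase subunit MCM6 (-1.59 ± 0.34, limma adjusted p = 0.047), a count that was 0 without a scramble or shRNA 2 array, with 2 or 3 under an unadjusted p of 0.05, and 1 without an shRNA 1 array. All 5 tested genes of the list of late cyclins and CDK1, which act after G1, fell with shRNA 2, with CDK1 at -3.06, CCNA2 at -3.00, CCNB1 at -2.51 and CCNB2 at -2.22. With shRNA 1 limma called 0 of these 5, also 0 at an unadjusted p under 0.05, and the largest values were 0.26 for CCNB1 and -0.26 for CDK1. CCNA1, the 6th gene of the list, fell short of the filter. It measured 5.36 and 4.81 under scramble, 2.36 on both shRNA 1 arrays, and 4.37 and 4.19 under shRNA 2, and with no filter 1 gene of this list was called lower with shRNA 1. With shRNA 2, most or all calls of both lists were lost without scramble replicate 1 or either shRNA 2 array, and some without scramble replicate 2. Calls over all tested genes fell too. Without scramble replicates 1 and 2 and shRNA 2 replicates 1 and 2 in turn, the E2F list had medians of -1.60, -2.57, -2.32 and -1.88. The late cyclins had medians of -2.05, -2.98, -2.85 and -2.17. With no filter, limma called 1 of 24 E2F targets and 0 of 6 late cyclins lower with shRNA 2, with 15 and 6 under an unadjusted p of 0.05.

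**Figure D4:**
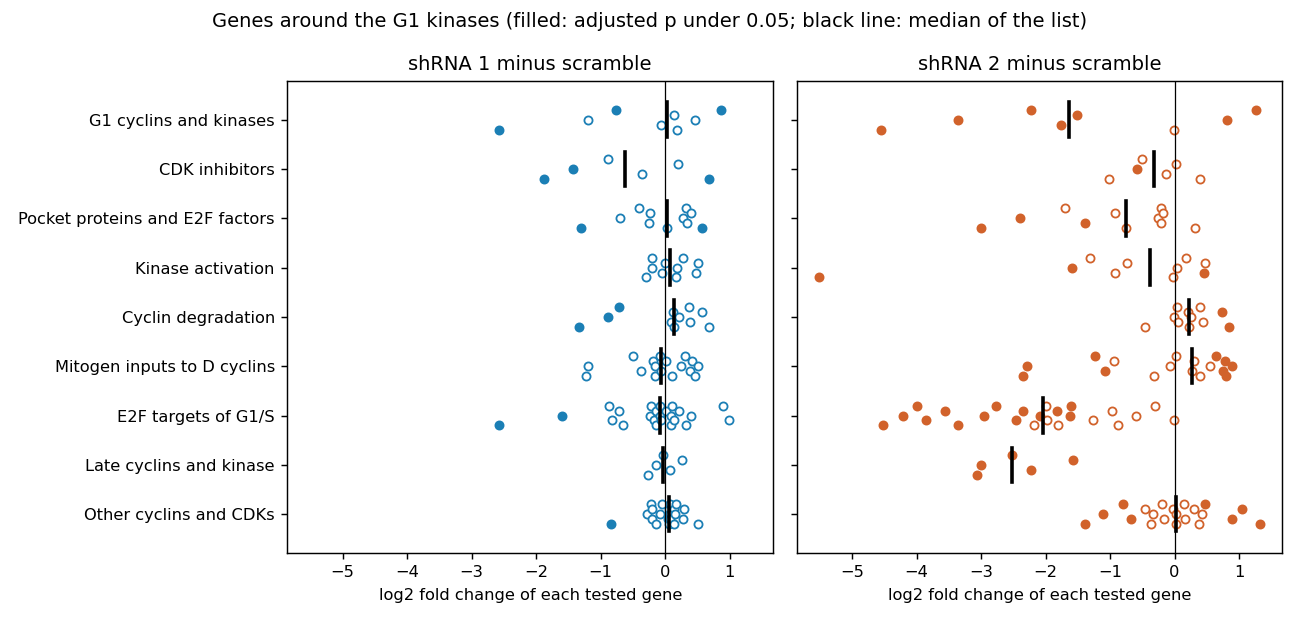
Log2 fold change against scramble (x axis) of every tested gene in 9 lists around the G1 kinases (y axis), with shRNA 1 on the left and shRNA 2 on the right, filled where the limma adjusted p was under 0.05, and a black line at the median of each list. The medians of the E2F target and late cyclin lists are -2.04 and -2.51 with shRNA 2 and -0.078 and -0.030 with shRNA 1.

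Of 6 tested inhibitors of the G1 kinases, 2 fell and 1 rose with shRNA 1 (33.3% and 16.7%, beside 7.90% and 3.62% of all tested genes), with a median of -0.62. With shRNA 2, 1 fell (16.7%, near the 14.4% of all tested genes), with a median of -0.32. With the block 3 fell with shRNA 2, beside 22.2% of all tested genes. Under the block with shRNA 1, 3 fell and 1 rose, beside 16.8% and 12.8% of all tested genes. With shRNA 1, CDKN1A, which encodes p21 of the CIP/KIP family, fell by 1.88 ± 0.22 (limma adjusted p = 0.015), CDKN2D, an INK4 inhibitor, fell by 1.42 ± 0.12 (adjusted p = 0.0076), and CDKN1B, which encodes p27, rose by 0.69 ± 0.13 (adjusted p = 0.036). With shRNA 2, CDKN2A, an INK4 locus gene, fell by 0.58 ± 0.12 (adjusted p = 0.021). The shRNA 1 counts dropped to 0 without either scramble array and to 1 lower without any other single array, and the shRNA 2 count dropped to 0 without either scramble or either shRNA 2 array.

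Among 11 tested pocket proteins and E2F factors, the substrates of the kinases and the factors they hold, 3 fell with shRNA 2 and 0 rose (6 and 0 with the block). The 3 lower are 27.3%, beside 14.4% of all tested genes lower and 31.0% called in either direction. With the block, 22.2% of all tested genes were lower and 28.4% higher with shRNA 2. Under the block with shRNA 1, 2 of the list rose and 1 fell, beside 12.8% and 16.8% of all tested genes. With shRNA 2 the list had a median of -0.76, beside 0.079 over all tested genes. RB1, the retinoblastoma gene, fell by 1.39 ± 0.20 (limma adjusted p = 0.010), and the repressor E2F7 fell by 3.01 and E2F8 fell by 2.40. With shRNA 1, 1 of the 11 rose and 1 fell (9.09% each, beside 3.62% and 7.90%): E2F3, an activator, rose by 0.57, and the pocket protein RBL1 had a log2 fold change of -1.30 ± 0.28 (adjusted p = 0.049). With shRNA 2 the count was 1 without either shRNA 2 array and 0 without either scramble array, and with shRNA 1 it was 0 without any 1 of the 6 arrays, with 2 or 3 genes under an unadjusted p of 0.05.

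Of 10 tested genes that activate or restrain the kinases, 2 fell and 1 rose with shRNA 2, a share near the 31.0% called among all tested genes. With the block 4 fell and 2 rose, beside 22.2% and 28.4% of all tested genes. CKS1B, a small subunit that binds CDKs and serves in the degradation of p27, fell by 5.51 ± 0.44 (limma adjusted p = 0.0033). It measured 12.72 and 11.87 under scramble, 12.63 and 11.56 under shRNA 1, and 6.86 and 6.70 under shRNA 2. WEE1, which places an inhibitory phosphate on CDK1 and CDK2, fell by 1.59, and CDK7, the kinase that activates CDKs, rose by 0.46. With shRNA 1 limma called 0 of the 10, with 1 under an unadjusted p of 0.05. With the block 1 was called, beside 29.6% of all tested genes. The largest values were 0.50 for WEE1 and 0.48 for CDC37, a chaperone of CDK4. Without a scramble or shRNA 2 array 1 gene was called lower and 0 higher with shRNA 2, and without an shRNA 1 array 2 and 0.

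The list of ubiquitin ligase subunits and deubiquitinases that act on D and E cyclins or their regulators had 11 tested members. With shRNA 1, 3 fell and 0 rose (27.3% lower, beside 7.90% of all tested genes, and 3 and 3 with the block): AMBRA1 at -1.33, FBXO4 at -0.89 and FBXO31 at -0.71, adaptors for D cyclins. With shRNA 2, 2 rose and 0 fell (18.2% higher, near the 16.7% of all tested genes, and 3 and 0 with the block): FBXW7, the adaptor for cyclin E, at 0.85 and CUL1, its scaffold, at 0.74. Under the block, 16.8% of all tested genes fell and 12.8% rose with shRNA 1, and 22.2% and 28.4% with shRNA 2. The shRNA 1 calls were lost without any 1 of the 6 arrays, with 4 or 5 genes under an unadjusted p of 0.05, and the shRNA 2 calls without a scramble or shRNA 2 array, with 2 or 3.

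Of the genes that carry mitogen signals to D cyclins, 17 were tested. With shRNA 2, 5 rose and 4 fell (29.4% and 23.5%, beside 16.7% and 14.4% of all tested genes). With the block 7 rose and 5 fell, beside 28.4% and 22.2% of all tested genes. The called genes included the receptor EGFR at 0.78, the kinases AKT1 at 0.80 and AKT2 at -2.35, and CTNNB1, which encodes beta-catenin, at -1.23. With shRNA 1 limma called 0, with 4 under an unadjusted p of 0.05. With the block 3 rose and 2 fell, beside 12.8% and 16.8% of all tested genes. The largest values there were -1.22 for JUN and -1.20 for FOSL1, both AP-1 factors. Without scramble replicate 1, scramble replicate 2, shRNA 2 replicate 1 or shRNA 2 replicate 2, the shRNA 2 counts were 0, 1, 0 and 0 higher and 2, 2, 1 and 2 lower.

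Of 21 tested cyclins and kinases outside the G1 set, 4 rose and 4 fell with shRNA 2 (6 and 6 with the block), with a median of 0.017. The shares without the block, 19% each, are near the 16.7% and 14.4% of all tested genes. Under the block, 28.4% of all tested genes rose and 22.2% fell. With shRNA 1, 1 fell (4.76%, beside 7.90%), with a median of 0.067. Under the block with shRNA 1, 1 rose and 1 fell, beside 12.8% and 16.8% of all tested genes. With shRNA 2, CDK5, a kinase best known from neurons, rose by 1.33 and CCNY rose by 1.05. CDK8, the kinase of the Mediator complex, fell by 0.68 with shRNA 2, and CCNK, a cyclin of transcription kinases, fell by 0.79. CDK14 fell by 0.84 with shRNA 1 (limma adjusted p = 0.048), a call lost without any 1 of the 6 arrays. With shRNA 2 the counts were 2 and 0 without scramble replicate 1, 2 and 0 without scramble replicate 2, 0 and 0 without shRNA 2 replicate 1, where 9 had an unadjusted p under 0.05, and 2 and 3 without shRNA 2 replicate 2. With no filter the counts with shRNA 2, higher and lower, were 0 and 0 for pocket proteins and E2F factors (5 under an unadjusted p of 0.05 by limma), 0 and 1 for kinase activation, 1 and 0 for cyclin degradation, 0 and 2 for mitogen signals and 4 and 1 for the other cyclins and kinases. With shRNA 1 and no filter, limma called CDK inhibitors 0 higher and 1 lower and none of the pocket protein, cyclin degradation, E2F target and other cyclin lists (0 each, with 2, 6, 2 and 5 genes under an unadjusted p of 0.05).

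For each member, the tested genes with the most similar profile were found by the Euclidean distance over the 6 arrays, each profile taken as differences from its own scramble mean. Among the 8 members themselves CDK4 and CDK6 were closest, at a distance of 1.25, followed by CCND1 with CCND3 at 1.87 and CCNE2 with CDK2 at 2.09. The 1.87 was above the median distance of tested genes to CCND3, 1.53, and near that to CCND1, 2.15. CCND1 and CCND3 were thus not similar by this measure, with -0.76 and 0.46 for shRNA 1. The nearest gene of CDK4 was POLR3G at 0.091, with 0.21 for shRNA 1 and -2.23 for shRNA 2 as its log2 fold changes, followed by COBLL1 and PRPS2. CDK6 was nearest to ATF5 at 0.27 (0.84 and -1.74), then KLHDC8B and ARHGEF26. CDK2 was nearest to DEPDC1B at 0.53 (-0.10 and -4.62), then KIF15 and CENPQ, and CCNE2 to POLQ at 0.28 (-0.13 and -3.42), then SPC25 and AURKB. CCNE1 was nearest to REXO4 at 0.44 (-2.30 and 0.01), then SNRNP40 and RAB3IP. CCND1 was nearest to HYI at 0.13 (-0.76 and 1.19), then NBDY and RGS17. CCND2 was nearest to PSAT1 at 0.66 (-1.01 and -1.65), then FAM241A and PRKX, and CCND3 to PHLDB3 at 0.22 (0.41 and 0.69), then PIP4K2B and DNM2. The median distance of all other tested genes ran from 1.53 for CCND3 to 6.66 for CDK2. These distances are descriptions over 6 arrays that all share the scramble reference.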

How the data were processed

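The deposited values are log2 expression values per probe set and array. The submitters' processing notes name GCRMA, with no version in the sources used here. That method models background by probe sequence, brings arrays to a common distribution and leaves dim probe sets at a floor, here 2.24 at the lowest. Per the labels' protocols, 250 ng of total RNA went into biotinylated cRNA. Control probe sets (62) were left out, and only the 41091 probe sets with 1 gene symbol in the platform annotation were named. A gene was its brightest probe set, tested at a mean log2 value of at least 4. Limma version 3.58.1 in R version 4.3.3 was fitted over all 6 arrays with a mean per group, with 3 residual and 2.09 prior degrees of freedom, two-sided, and adjusted over 10526 genes. The number of arrays limits the precision, with a median SE of 0.17 for each shRNA against scramble. The script was tested on simulated data. Alternatives changed the replicate block, the arrays and groups in the fit, the filter, the choice of probe set, the normalization and the variance model.

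The members and lists were chosen with earlier results of these data known. Named genes were all members and KDM5A. For each list and shRNA they were up to 4 called genes with the smallest adjusted p, or the 2 largest changes where none was called, and for each member the 3 nearest profiles. COL1A1, KRT8, KRT18, KRT19, CDH1, CDH2, VIM and EPCAM are named as markers. Replicate numbers from the titles were taken to pair the arrays in the blocked fits and in the differences within each replicate number. Deviations of same-numbered arrays correlated across genes in every pair of groups (0.75, 0.51 and 0.53). The main fit left this pairing out, so its SEs, intervals and adjusted p-values are unpaired. Blocked values stand beside a result where they change a call.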

Additional observations from a re-analysis of the deposited data

Results flagged for a closer look

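Members whose change differed between the shRNAs stood out by the direct test of shRNA 1 minus shRNA 2 on the log2 scale. CDK2 differed by 4.69 (limma adjusted p = 0.0018), CCNE2 by 3.30 (0.018), CDK6 by 2.62 (0.0011) and CDK4 by 2.41 (0.0030). CCNE1 differed by -2.56 (0.0049) and CCND1 by -2.02 (0.0012).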

How the results depend on the processing

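Of 500 log2 fold changes of the 8 members under an alternative, 409 kept their direction and their side of the threshold, 66 lost a call, 14 gained one and 11 changed sign, all of results that were not called. The number of members called with shRNA 1 was 3, and 0 with only the compared groups in the fit or with no filter on dim probe sets, where 5 and 4 members had an unadjusted p under 0.05 by limma. It was 0 to 1 with each array left out in turn. With shRNA 2 it was 7, with 4 under no filter and 4 to 7 with an array left out. In the mean of both shRNAs it was 3. There it was 7 with the replicate block, 0 with no filter (7 with an unadjusted p under 0.05), 5 when the filter was raised to 6, 5 with arrays centred on the median, 5 with an intensity trend and robust eBayes, and 0 to 1 with an array left out. For shRNA 1 against shRNA 2 it was 6, and 4 to 6 with an array left out. The log2 fold change of KDM5A in the mean of both shRNAs stayed between -2.40 and -2.33 with an array left out, but passed in 2 of the 6 such fits (adjusted p from 0.044 to 0.11), losing its call without either scramble or either shRNA 2 array. Over all tested genes limma called 1213 with shRNA 1, 3264 with shRNA 2, 1318 in the mean and 4327 between the shRNAs. With the block these were 3117, 5324, 3670 and 6071, and with no filter 311, 1470, 332 and 2477. Leaving out an array gave 0 to 191, 624 to 2928, 0 to 457 and 1874 to 3718, and 191 were called with shRNA 1 with only the compared groups. The block changed no other member call than those given beside the results.

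CDK2 with shRNA 1 was -0.025 by the mean of all probe sets and -0.26 to 0.52 with an array left out. CCNE1 with shRNA 2 was 0.030 with arrays centred, 0.010 after quantile normalization and -0.14 to 0.12 with an array left out. With an array left out, CCNE2 with shRNA 1 ran from -0.93 to 0.81, CDK4 with shRNA 1 from -0.0076 to 0.39 and CCND2 between the shRNAs from -0.063 to 0.70. By the mean of all probe sets CCND2 fell below the filter and was not tested. The cause of these shifts was not tested. A group with 1 array left is assumed to vary like the others. Values at the floor of 2.24 carry no order.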

Other observations

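The replicates of CDK2 differed with opposite sign between the groups. Replicate 1 minus replicate 2 was 0.67 on the log2 scale in scramble cells, 0.78 with shRNA 1 and -0.68 with shRNA 2. Gaps of at least these sizes were found in 7.57%, 7.14% and 4.10% of the tested genes. The sign with shRNA 2 also differed from the other groups for CDK4 (0.39, 0.24 and -0.61), CCND2 (-0.042, -0.42 and 0.76) and CCND1 (-0.14, -0.15 and 0.093). With shRNA 2, 5.51%, 2.82% and 68.6% of the tested genes had gaps of at least those of CDK4, CCND2 and CCND1.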
